A study of Mus musculus with 28 samples.

Results

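The neuregulin and ErbB pathway of developing mouse nerve was followed through 8 genes, which were taken by name out of the 41605 genes of the count table. They comprised the ligands Nrg1 and Nrg2, the receptors Erbb2, Erbb3, Erbb4 and Egfr, and the membrane proteases Adam17 and Bace1. All 8 genes passed the filter on low counts. They were chosen with earlier results of these data known.

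Neuregulins are growth factors with an EGF-like domain, and axonal neuregulin 1 is known to control the survival, migration and myelination of Schwann cells, the glia of peripheral nerve. ErbB3 binds neuregulin but has little kinase activity of its own, and ErbB2 has an active kinase but no known ligand, so that the pair signals as a heterodimer, whereas ErbB4 both binds neuregulin and acts as a kinase. BACE1 and ADAM17 cleave neuregulin 1 near the membrane, and cleavage by BACE1 is known to favour myelination while cleavage by ADAM17 is known to restrain it.

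All 8 are protein-coding genes, and their places are given for GRCm38 as annotated in GENCODE M21. On the plus strand lie Erbb2 (ENSMUSG00000062312) at chr11:98412470-98437716, Egfr (ENSMUSG00000020122) at chr11:16752203-16918158, and Bace1 (ENSMUSG00000032086) at chr9:45838580-45864399. On the minus strand lie Nrg1 (ENSMUSG00000062991) at chr8:31814551-32884029, Nrg2 (ENSMUSG00000060275) at chr18:36017652-36197380, Erbb3 (ENSMUSG00000018166) at chr10:128567523-128589652, Erbb4 (ENSMUSG00000062209) at chr1:68032186-69108059, and Adam17 (ENSMUSG00000052593) at chr12:21323509-21373632.

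The data were bulk RNA sequencing counts of peripheral nerve from untreated wild-type C57BL/6J mice, with 4 libraries at each of 2 embryonic (E13 and E17) and 5 postnatal stages (P1, P5, P14, P24 and the young adult P60), named as in the labels, while the methods place both embryonic stages later within the same day. Each E13 library pooled various nerves distal to the dorsal root ganglia from 2 embryos, each E17 library pooled sciatic nerves from 2 embryos, and each postnatal library came from the sciatic nerves of 1 mouse. The epineurium and perineurium were stripped from E17 on, so the step from E13 to E17 combined age, the nerves sampled and the dissection, which cannot be told apart. Mice were not perfused, and males and females contributed equally at each stage, but the sex of each library was not used here.

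Total counts ran from 13899895 to 37662780 per library. Levels are given as CPM, that is counts after library sizes were scaled by TMM and set to the same total, and changes as log2 fold changes of the later over the earlier stage with their standard error (SE), called when edgeR's quasi-likelihood test gave an adjusted p under 0.05. A change in the level of a gene in whole nerve can come from the number of cells of a type or from the amount of its RNA per cell, which bulk counts cannot tell apart. RNA held in cell bodies outside the dissected nerve was not sampled. Neither neuregulin protein on axons nor its cleavage was measured. Sox10, a transcription factor of the Schwann cell lineage, was present at every stage, from 118 CPM at E13 to 468.5 CPM at P14. The summed level of 8 markers of neuronal cell bodies was 1556 to 3132 CPM in the E13 libraries, 82.7 to 132 CPM at E17, 21.9 to 30.4 CPM at P14 and 64.8 to 78.4 CPM at P60. Single E13 libraries also carried summed skeletal muscle markers of up to 586 CPM and summed erythroid markers of up to 5656 CPM. Some libraries followed the GC content of transcripts: relative to its stage mean, expression changed by -0.93 log2 units per 10 percentage points of GC in E13 replicate 1, by 0.73 in E13 replicate 4 and by -0.43 in P1 replicate 1, against -0.16 to 0.20 in the others. Values without these libraries are given beside the main changes they touch.

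All 8 genes differed between stages in a test of all stages together, as did 88.8% of the 17700 genes tested. Nrg2 is counted here and between E13 and E17 but passed the filter only through E13, the stage where it is highest, so its calls against E13 are no support and are given as a description. Between E13 and E17, calls were made for 7 of the 8, beside 62.2% of all genes, 4 of them higher (28.1% of all genes) and 3 lower (34.1%). From E17 to P1 it was 3 of the 8 beside 29.5%, from P1 to P5 2 beside 17.6%, from P5 to P14 3 beside 29.6%, from P14 to P24 1 beside 5.45%, and from P24 to P60 3 beside 16.1%. Between E17 and P60 it was 6 of the 8 beside 64.3%, 3 of them higher (32.8% of all genes) and 3 lower (31.5%). With a change of at least 2-fold required as well, the numbers for the 6 steps were 6 beside 35.5%, 2 beside 11.7%, 1 beside 5.84%, 1 beside 12%, 0 beside 2.65% and 1 beside 5.96%, and 4 beside 39.7% for E17 to P60. With 8 genes, these numbers are not read as a difference from all genes, and the courses of the single genes are described.

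**Figure D1:**
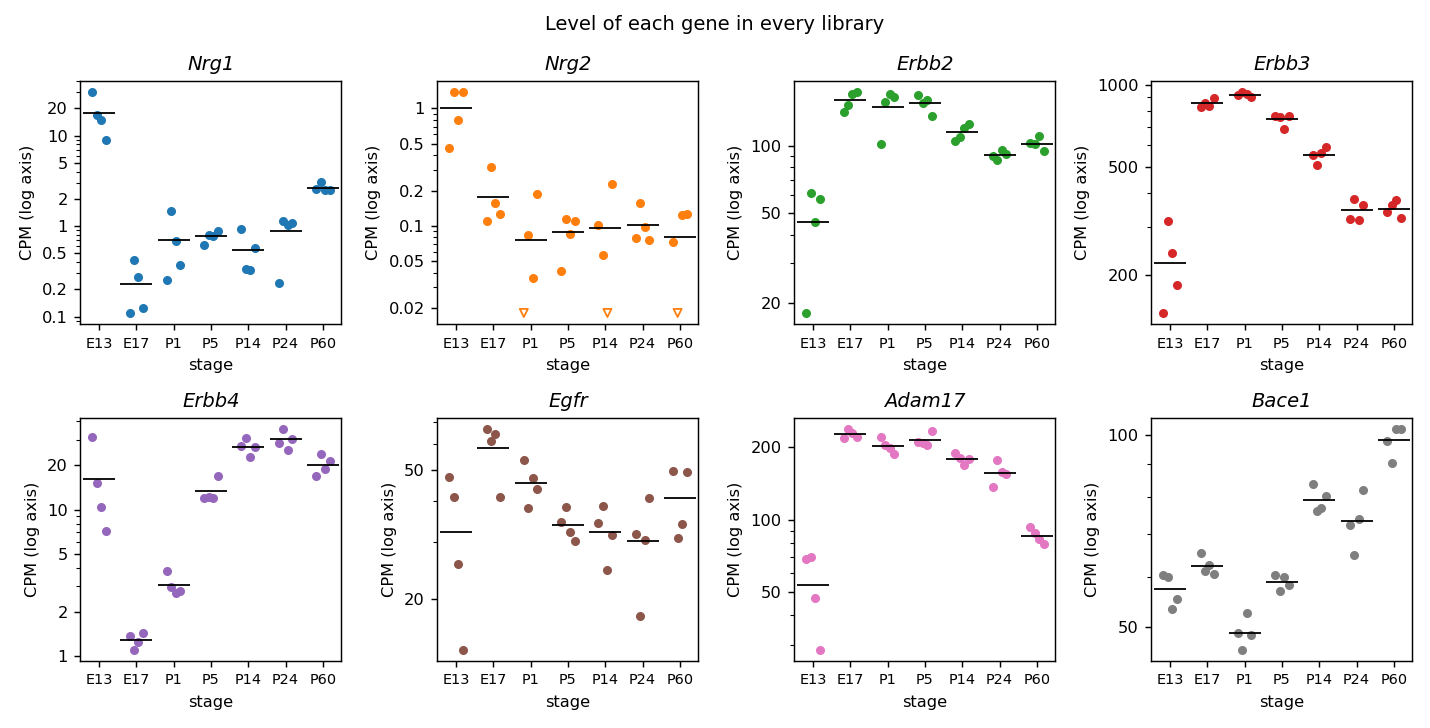
Level of each gene in each of the 28 libraries. Points are single libraries in CPM on a log axis, horizontal bars are means of the 4 libraries of a stage, and open triangles at the bottom mark libraries without a count. Nrg1 and Nrg2 were highest at E13, Erbb3 was highest at P1 and Erbb4 was lowest at E17.

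Nrg1, which encodes the ligand best known for signalling from axons to Schwann cells, was detected at 30.2, 16.96, 15.0 and 8.84 CPM in E13 replicates 1 to 4. At E17 it was 0.110, 0.423, 0.272 and 0.126 CPM, with 19 counts in all 4 libraries together. The groups did not overlap, and Nrg1 fell by 6.19 on the log2 scale (SE 0.51, adjusted p = 5.81e-11). Without E13 replicates 1 and 4 it fell by 6.02. Neuronal cell body markers fell in the same step, all 8 of 8, and their part in the fall of Nrg1 was not tested. The level of Nrg1 RNA in the nerve is not a measure of neuregulin 1 protein on axons.

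After E17, Nrg1 was at most 1.46 CPM in the libraries up to P24. At P1 the libraries gave 0.255, 1.46, 0.693 and 0.372 CPM, and the rise over E17 of 1.48 (SE 0.57) passed narrowly (adjusted p = 0.0488), and was 1.75 without P1 replicate 1 (adjusted p = 0.0193). This call was lost in 9 of 19 alternative settings, and without P1 replicate 2 the log2 fold change was 0.86 with an adjusted p of 0.293. It was also lost without E17 replicate 1, 3 or 4 or without P1 replicate 3, with log2 fold changes of 1.26, 1.57, 1.31 and 1.48 in that order, and with a replicate block (1.46, adjusted p = 0.058), DESeq2 size factors (0.051), library size only (0.0727) or no filter (0.0606). The means at P5, P14 and P24 were 0.770 ± 0.107, 0.539 ± 0.278 and 0.879 ± 0.431 CPM (SD, n = 4), and none of the 3 passed against the stage before. Against E17, Nrg1 was higher at P5 (1.67, adjusted p = 0.0176, without overlap) and at P24 (1.92, adjusted p = 0.0046, with overlap), and at P14 the difference of 1.15 did not pass (adjusted p = 0.102).

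The second rise of Nrg1 came in the adult nerve. Its level was 0.236, 1.15, 1.04 and 1.09 CPM in P24 replicates 1 to 4 and 2.56, 3.05, 2.49 and 2.51 CPM in P60 replicates 1 to 4. Every P60 library lay above every P24 library, and the log2 fold change was 1.53 (SE 0.44, adjusted p = 0.0164). P24 replicate 1, the lowest library, decided this call: without it the log2 fold change was 1.27 and the adjusted p 0.0555. Against E17, the P60 level was 10.9-fold higher (adjusted p = 2.29e-06), a call kept in all 20 alternatives. From P24 to P60, 2 of the 8 neuronal markers were called higher, beside 1211 of all 17700 genes. They were Snap25, a protein of synaptic vesicle release, by 1.25 and Prph, which encodes the neurofilament protein peripherin, by 0.85 on the log2 scale. Both were named after their values were seen. From P14 to P24, where Nrg1 was not called (adjusted p = 0.497), 4 of the 8 were called higher, beside 482 of 17700 genes. The median log2 fold change of the 8 was 0.923 in that step and 0.606 from P24 to P60. The summed perineurial markers were 522.5 to 821 CPM at P24 and 1000 to 1412 CPM at P60, and the summed adipocyte markers 1.36 to 77.2 and 58.3 to 152 CPM. The part of these cells in the level of Nrg1 was not tested.

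Nrg2, the second neuregulin gene, was at 0.464, 1.37, 0.794 and 1.37 CPM in the E13 libraries and at 0.110, 0.317, 0.155 and 0.126 CPM at E17. The log2 difference was -2.44, with no overlap of the libraries, and -2.56 without E13 replicates 1 and 4. From E17 on, no library held more than 6 counts of Nrg2, and at P24 and P60 none held more than 3. Differences between these later stages were not detectable at this depth.

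In the order of the stages by mean level, Nrg1 was highest at E13, then at P60, and the other stages were not separated from their neighbours. For Nrg2, the E13 libraries lay above those of E17, and no other neighbours were separated. Among genes at a mean level of 5 CPM or more, those whose log2 levels followed Nrg1 most closely over the 28 libraries were Sgtb, Fam117b and Mast1, with Pearson r of 0.923, 0.917 and 0.916. For Nrg2 they included Ppfia4 and Tubb3, a neuronal tubulin, with r of 0.890 and 0.886. These correlations share the 4 E13 libraries as their highest points and the same library scaling.

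The receptor genes took opposite courses, with Erbb2 and Erbb3 high in the perinatal nerve and Erbb4 low there. The promoters of Erbb2 and Erbb4 are shown for this contrast, as the 250 bases before the transcription start in RefSeq (GRCm38.p6), read 5′ to 3′ on the strand of the gene. Erbb2 lies on the plus strand at chr11:98412234-98412483 and Erbb4 on the minus strand at chr1:69108060-69108309.
Erbb2: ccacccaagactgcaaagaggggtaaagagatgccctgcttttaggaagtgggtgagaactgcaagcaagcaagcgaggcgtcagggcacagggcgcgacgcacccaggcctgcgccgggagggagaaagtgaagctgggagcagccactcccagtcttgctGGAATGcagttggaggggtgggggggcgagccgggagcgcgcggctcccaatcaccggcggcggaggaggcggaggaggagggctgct
Erbb4: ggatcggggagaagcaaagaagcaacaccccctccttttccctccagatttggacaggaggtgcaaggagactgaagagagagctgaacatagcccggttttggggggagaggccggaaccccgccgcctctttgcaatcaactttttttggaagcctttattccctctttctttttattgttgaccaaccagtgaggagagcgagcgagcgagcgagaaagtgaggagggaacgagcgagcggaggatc
Capitals mark matches, on either strand, to GGAATG (a core bound by TEAD factors), ACAAAG or ACAATG (cores bound by SOX factors) and GGGCGG (a GC box). The Erbb2 window held 1 of these, GGAATG, beginning 88 bases before the start, and the Erbb4 window held none. Of 32851 promoter windows of the same length, 12.6% held the TEAD core, 25.2% a SOX core and 32.7% the GC box. The letters G and C made up 66.0% of the Erbb2 window and 54.0% of the Erbb4 window, beside a median of 52.4% for all windows.

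Erbb3, the neuregulin-binding partner in the Schwann cell receptor pair, had the highest level per kilobase of exon of the 8 genes at every stage. Its level was 145.0, 315, 241 and 184 CPM at E13, 826, 856, 836.5 and 894 CPM at E17 and 915, 939, 921 and 904 CPM at P1. All E17 libraries lay above all E13 libraries, and Erbb3 rose by 1.95 (SE 0.14, adjusted p = 6.7e-12), or by 1.63 without E13 replicates 1 and 4. In the same step 5 of 6 markers of the Schwann cell lineage rose and 1 fell, and their summed level was 237 to 445 CPM in the E13 libraries and 2736 to 2936 CPM at E17. Their part in the rises of Erbb3 and Erbb2 was not tested. The 4 P1 libraries lay above the 4 at E17, but the log2 fold change of 0.11 did not pass (adjusted p = 0.611).

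The level of Erbb3 fell between P5 and P24. It was 765, 761, 688 and 769.7 CPM in the P5 libraries, 553, 506, 563 and 589.9 CPM at P14 and 320.2, 380.0, 319 and 361 CPM at P24. No 2 of these 3 stages overlapped. All P5 libraries also lay below all P1 libraries, but the log2 fold change of -0.30 did not pass (SE 0.14, adjusted p = 0.148) and passed in 5 of 20 alternatives. The fall from P5 to P14 of 0.43 on the log2 scale (SE 0.14) passed with an adjusted p of 0.0207 and was lost without P5 replicate 4 (-0.42, adjusted p = 0.0507) or without P14 replicate 2 (-0.39, 0.0681). The fall from P14 to P24 of 0.68 (SE 0.14, adjusted p = 0.00278) held in all 20 alternatives. At P60 Erbb3 was 342, 361, 376 and 323.5 CPM, which overlapped with P24, and 2.43-fold below E17 (adjusted p = 1.01e-08). The summed proliferation markers were 442 to 565 CPM at P5 and 34.8 to 50.2 CPM at P24, and the immature Schwann cell markers 406 to 437 and 263 to 329 CPM. Those of the Schwann cell lineage were 7027 to 8082 and 8597 to 11280 CPM, and the perineurial markers 176 to 223 and 522.5 to 821 CPM. Their part in the fall of Erbb3 was not tested.

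Erbb2, the partner kinase, was at 18.02, 61.5, 45.8 and 57.9 CPM in the E13 libraries and at 142, 151, 170.1 and 173 CPM at E17. It rose by 1.80 (SE 0.22, adjusted p = 7.13e-08) without overlap, and by 1.57 without E13 replicates 1 and 4. The lowest E13 library was replicate 1, which read GC-rich transcripts low. In P1 replicate 1, which did so too, Erbb2 was 102 CPM against 157 to 170.3 CPM in the other P1 libraries, and without it the difference of P1 from E17 was 0.04 rather than -0.10, neither called.

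Erbb2 was 168, 154, 159 and 136 CPM at P5, 105, 109, 119.7 and 125.0 CPM at P14, 89.6, 86.3, 96.0 and 91.8 CPM at P24 and 102, 101, 110.7 and 94.4 CPM at P60. All P14 libraries lay below all P5 libraries, and the log2 fold change of -0.43 was of the size seen for Erbb3, but it did not pass (SE 0.21, adjusted p = 0.134). It passed in 7 of 20 alternatives, among them the removal of the GC trend within stages (adjusted p = 0.00103) and the fit without E13 libraries (0.00151). From P14 to P24 the log2 fold change was -0.33, again without overlap, which did not pass (adjusted p = 0.494) and passed in 6 of 20 alternatives. Over the longer interval from E17 to P60, Erbb2 fell by 0.64 (SE 0.21, adjusted p = 0.0109). Of neighbours in the order of its stage means, the lowest, E13, was separated from the next, P24, and no others were. P24 was also below E17 (-0.81, adjusted p = 0.00197), P1 (-0.71, 0.00632) and P5 (-0.76, 0.00502), each without overlap.

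**Figure D2:**
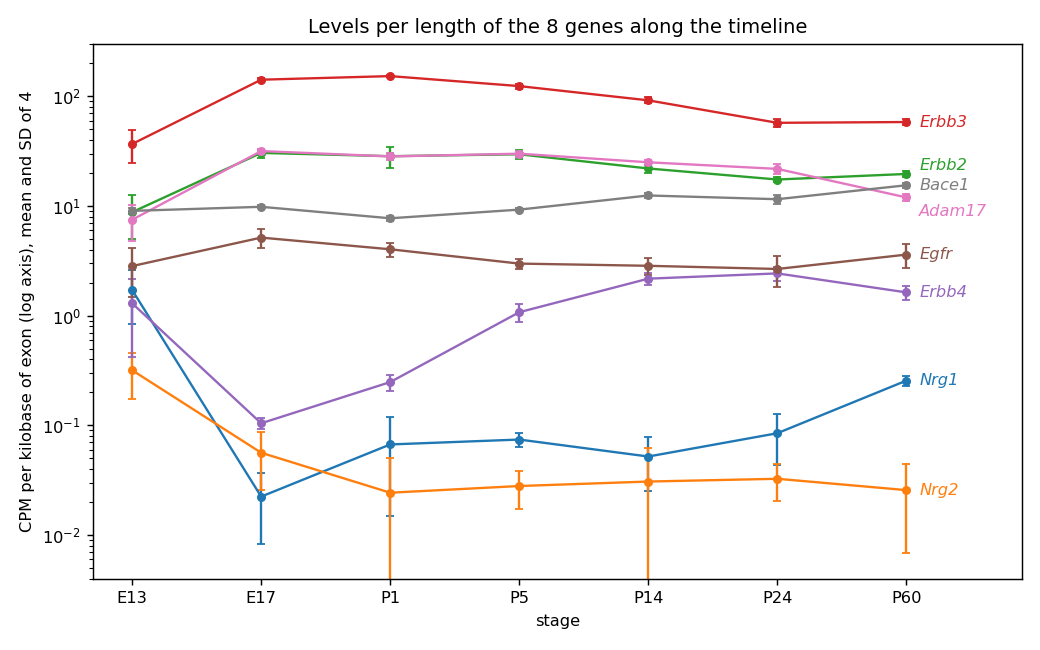
Levels of the 8 genes by stage, as CPM per kilobase of exon on a log axis, so that genes can be compared. Points are means and bars SDs of 4 libraries, and lower bars that reach past the axis are cut off. Erbb3 stood above the other 7 genes at every stage, and Erbb4 passed from 0.105 at E17 to 2.43 at P24.

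Per kilobase of exon, the Erbb3 level was 142 ± 5.02 CPM per kb at E17 and that of Erbb2 30.5 ± 2.90 CPM per kb (SD, n = 4). Within single libraries the ratio of Erbb3 to Erbb2 per kb had geometric means of 4.43 at E13 and 4.66 at E17, a highest value of 5.48 at P1, then 4.19 (P5), 4.18 (P14) and 3.28 (P24), and a lowest value of 2.97 at P60. The P1 value rested on P1 replicate 1, with a log2 ratio of 2.963 against 2.227 to 2.376 in the other 3 libraries. Without it the P1 mean was 2.28, beside 2.22 at E17, and the E13 libraries ranged from 1.463 to 2.80 on this scale. The log2 ratio at P60 was 0.65 lower than at E17, where the 4 and 4 libraries did not overlap (exact two-sided permutation p = 0.0286). This is the smallest p that 4 against 4 can give, and over the 14 ratio tests it became 0.0667, so neither this difference nor the one from P14 to P24 (-0.35, the same p) passed. With the GC trend removed within stages, both differences and their exact p were the same, and the adjusted p became 0.04 because 10 rather than 6 of the 14 tests reached the smallest p. This correction starts from the mean of each stage, so it keeps differences between stages nearly unchanged by design and is no check on them. With the trend removed against all libraries, the difference of P60 from E17 was -0.38 rather than -0.65. Over the 28 libraries the log2 levels of the pair had a Pearson r of 0.879, and of 0.856 over the 24 libraries without E13. Pde8a, Ubl3 and Afap1l2 were the genes most like Erbb3 (r of 0.975, 0.968 and 0.967), and Fam102a, Adcy6 and Cdc42se1 those most like Erbb2 (0.974, 0.962 and 0.942).

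Erbb4, the receptor that binds neuregulin and has its own kinase, moved over the widest range of the 4 receptor genes. In the E13 libraries it was 31.4, 15.2, 10.4 and 7.10 CPM, highest in replicate 1 and lowest in replicate 4, and its exons hold 40.6% GC. At E17 it was down to 1.37, 1.11, 1.24 and 1.44 CPM. The fall of 3.64 (SE 0.32, adjusted p = 1.59e-10) was 3.30 without E13 replicates 1 and 4 and 3.44 with the GC trend removed within stages. Neuronal markers fell in the same step, as given for Nrg1, and their part in this fall was not tested.

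Erbb4 then rose in 3 consecutive steps. It was 3.83, 2.96, 2.70 and 2.79 CPM at P1, 12.0, 12.1, 12.1 and 17 CPM at P5 and 27.2, 30.9, 22.8 and 26.7 CPM at P14, and each of these stages lay wholly above the one before. The log2 fold changes were 1.25 from E17 to P1 (SE 0.32, adjusted p = 0.00406), 2.11 from P1 to P5 (SE 0.28, adjusted p = 3.61e-06) and 1.02 from P5 to P14 (SE 0.26, adjusted p = 0.00429). Each held in all 20 alternatives, among them, for the steps to and from P1, the fit without P1 replicate 1. Over the same stages the summed level of 5 myelinating Schwann cell markers was 1671 to 1961 CPM at E17 and 55450 to 71070 CPM at P14, that of 5 perineurial markers 268 to 303 and 459 to 566 CPM, and that of 5 pericyte and smooth muscle markers 141 to 175 and 465 to 546 CPM. Their part in the rise of Erbb4 was not tested. At P24 it was 28.6, 35.5, 25.6 and 30.4 CPM, which overlapped with P14.

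In the order of its stage means, P24, P14, P60, E13 and P5 were not separated from their neighbours, while P5 lay above P1 and P1 above E17. At P60, Erbb4 was 16.8, 23.7, 18.8 and 21.3 CPM, below every P24 library, but the log2 fold change of -0.58 did not pass (SE 0.26, adjusted p = 0.151). It passed in 6 of 20 alternatives, with an adjusted p of 0.00175 when the GC trend was removed within stages. Against E17, P60 was 15.6-fold higher (adjusted p = 2.3e-11). Over the 24 libraries from E17 on, Erbb4 ran against Erbb3 with a Pearson r of -0.783 and against Erbb2 with -0.731. Cdh3, a cadherin, Pclo, a protein of the presynaptic active zone, and Rab39b had the courses most like that of Erbb4 (r of 0.964, 0.963 and 0.955 over 28 libraries). Even at its highest, the Erbb4 level of 2.43 ± 0.337 CPM per kb at P24 stood below the Erbb3 level of 57.4 ± 5.05 CPM per kb.

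Egfr, the receptor of EGF, TGF-alpha and related ligands, had no called step after E17. It was 47.4, 41.4, 25.6 and 13.998 CPM at E13 and 66.8, 61.2, 64.2 and 41.3 CPM at E17, and the groups overlapped. The rise of 0.86 (SE 0.27, adjusted p = 0.00656) was lost with library size as the only scaling (0.60, adjusted p = 0.065) and in a fit of the 2 stages alone (0.86, adjusted p = 0.068), and was 0.81 without E13 replicates 1 and 4 (adjusted p = 0.0131). From P1 on the stage means ran from 30.2 CPM at P24 to 45.7 CPM at P1. No later step passed, and no neighbours in the order of its 7 stage means were separated. Against E17, however, Egfr was lower at P5 by a log2 fold change of -0.79 (adjusted p = 0.0184, beside 41% of all genes called), at P14 by -0.86 (0.00775, beside 56.5%) and at P24 by -0.95 (0.00325, beside 60.6%), each without overlap. At P60 the difference from E17 of -0.52 did not pass (adjusted p = 0.0912) and passed in 5 of 20 alternatives.

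**Figure D3:**
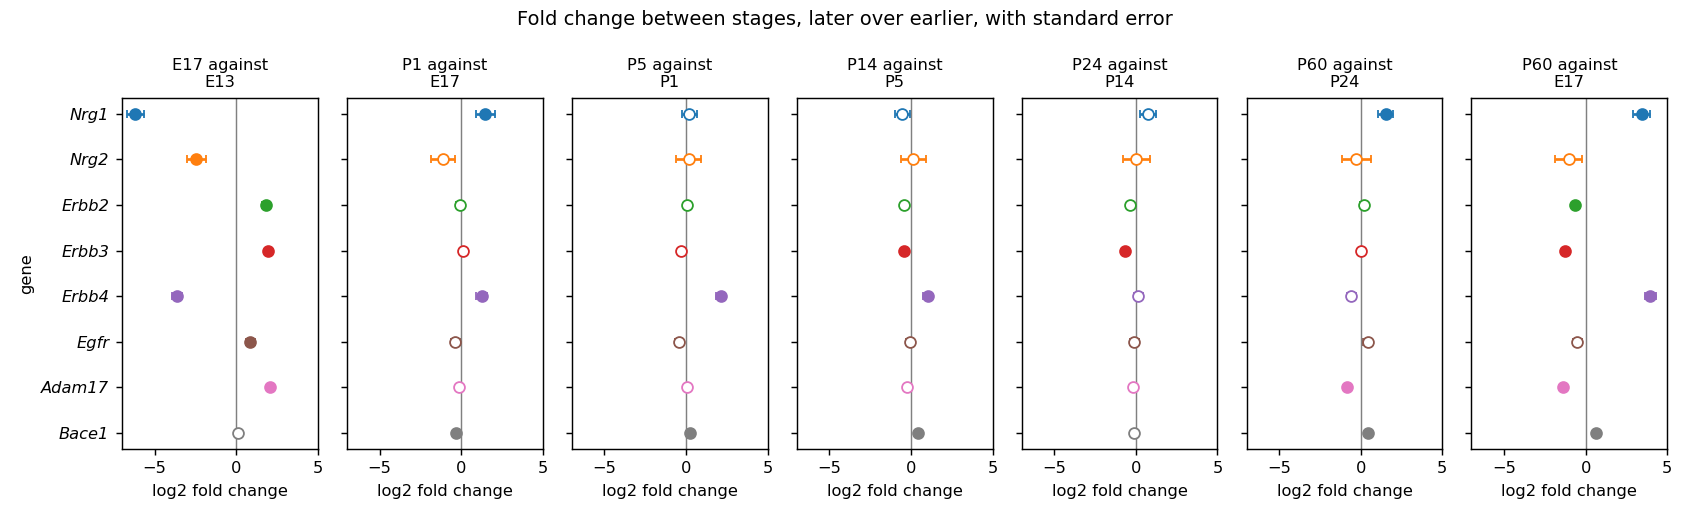
Log2 fold changes of the 8 genes in 7 comparisons, later over earlier stage, with standard errors as bars. Filled points had an adjusted p under 0.05 in edgeR's quasi-likelihood test over 17700 genes, and open points did not. Erbb4 had filled points right of 0 in the 3 steps from E17 to P14, and Erbb3 filled points left of 0 in the 2 steps from P5 to P24.

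Of the protease genes, Adam17 fell and Bace1 rose between P24 and P60. The summed proliferation markers were 34.8 to 50.2 CPM at P24 and 2.55 to 4.14 CPM at P60. Perineurial and adipocyte markers in this step are given with Nrg1. Their part in the changes of Adam17, Bace1 and their ratio was not tested. Adam17, which encodes the sheddase also called TACE, was 68.7, 69.8, 47.3 and 28.8 CPM at E13 and 218, 238.5, 229.6 and 221 CPM at E17. It rose by 2.08 (SE 0.17, adjusted p = 2.46e-11), and by 1.96 without E13 replicates 1 and 4. The means then were 203 ± 14.03 CPM at P1, 215 ± 13.4 at P5, 179 ± 8.63 at P14 and 156 ± 16.2 at P24 (SD, n = 4), and no step between them passed. The step from P5 to P14 (-0.26, adjusted p = 0.236) passed in 6 of 20 alternatives, and P24 lay below E17 (-0.54, adjusted p = 0.00483), P1 (-0.38, 0.0456) and P5 (-0.46, 0.0217), each without overlap. At P60, Adam17 was 92.7, 87.7, 83.1 and 79.4 CPM against 137, 176, 157 and 154 CPM at P24. Every P60 library lay below every P24 library, and Adam17 fell by 0.86 (SE 0.16, adjusted p = 0.000315). At P60 it was 2.64-fold below E17 (adjusted p = 2.1e-08), and both falls held in all 20 alternatives. In the order of its stage means, the highest 5 stages were not separated from their neighbours, P24 lay above P60 and P60 above E13. Rcn1, Calu and Nid1, which encode proteins of the secretory pathway and the basement membrane, followed it most closely (r of 0.989, 0.981 and 0.978 over 28 libraries).

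Bace1, which encodes the beta-secretase, varied little between replicates, with SDs of 1.52 to 6.99 CPM. It was 60.4, 59.97, 53.4 and 55.5 CPM at E13 and 65.4, 61.3, 62.6 and 60.5 CPM at E17. The log2 difference of 0.12 did not pass (adjusted p = 0.18) and was 0.15 without E13 replicates 1 and 4. It turned to -0.13 with library size as the only scaling and passed with limma-voom (0.203, adjusted p = 0.0106). Bace1 fell to 48.9, 46.1, 52.6 and 48.6 CPM at P1 (log2 fold change -0.35, SE 0.08, adjusted p = 0.00136), below every E17 library, and the change was -0.35 also without P1 replicate 1. At P5 it was 60.3, 57.1, 59.9 and 58.2 CPM, above every P1 library. This rise of 0.26 (SE 0.08, adjusted p = 0.0214) was lost in 5 of 20 alternatives, among them library size as the only scaling, where it was 0.06, and the omission of P1 replicate 2 or of P5 replicate 1 or 3, where it was 0.23 to 0.25.

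The later rises of Bace1 were called in all 20 alternatives, with log2 fold changes of 0.256 to 0.486 from P5 to P14, 0.368 to 0.538 from P24 to P60 and 0.34 to 0.745 from E17 to P60. It was 83.8, 76.1, 76.8 and 80.1 CPM at P14, above every P5 library (log2 fold change 0.43, SE 0.08, adjusted p = 0.00014), and 72.2, 64.9, 73.8 and 81.9 CPM at P24, which overlapped with P14. At P60 it was 97.9, 90.5, 102.1 and 102.3 CPM, above every P24 library (0.42, SE 0.08, adjusted p = 0.000369) and 1.57-fold above E17 (adjusted p = 5.75e-08). In the order of its stage means, P60 lay above P14, P24 above E17 (adjusted p = 0.0146, with overlapping libraries) and E13 above P1, the lowest, and the other neighbours did not pass. Ctdspl, Pnrc1 and Klf2 had the most similar courses (r of 0.954, 0.948 and 0.945). The exons of Bace1 overlap those of 3 genes on the other strand, Rnf214 over 975 bases, Gm49338 over 951 and Gm16536 over 135, and for Adam17 the gene Iah1 overlaps over 311 bases and for Nrg1 the gene Gm26578 over 482. Use of read strand in the counting is not given in the sources used here, so these levels may include or lack reads of the overlaps.

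Within single libraries, the ratio of Bace1 to Adam17 per kb had geometric means of 1.28 at E13, 0.273 to 0.311 from E17 to P5, 0.498 (P14), 0.529 (P24) and 1.29 (P60). The E13 libraries ranged from -0.046 to 1.118 on the log2 scale. Bace1 was thus the lower of the pair in every library from E17 to P24 and the higher in every library at P60. This compares RNA levels in the nerve, and cleavage of neuregulin 1 was not measured. With 4 against 4 libraries the smallest exact p is 0.0286, which became 0.0667 with 6 of the 14 tests at it, so no step of the log2 ratio could pass by its size alone. The P60 and P24 libraries did not overlap (difference of 1.29), nor did those of P14 and P5 (0.69) or of P60 and E17 (2.06). With the GC trend removed within stages, these 3 differences were 1.29, 0.69 and 2.055 with the same exact p, and their adjusted p of 0.04 came from the larger number of tests at the smallest p. That correction keeps differences between stages nearly unchanged by design, so it is no check on them. With the trend removed against all libraries they were 1.29, 0.665 and 1.971.

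**Figure D4:**
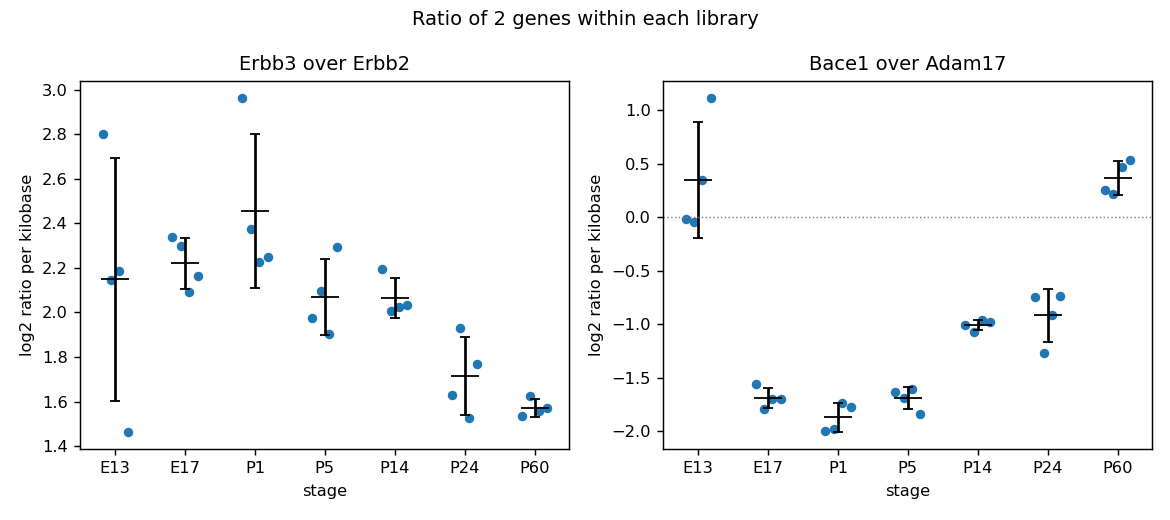
Log2 ratios per kilobase of Erbb3 over Erbb2 (left) and Bace1 over Adam17 (right) by stage. Points are single libraries, horizontal bars are means and vertical bars SDs of 4 libraries, and the dotted line marks equal levels. The Bace1 to Adam17 ratio lay under that line in every library from E17 to P24 and above it in every library at P60.

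Other genes of the pathway were read from 4 lists with 60 genes, of which 58 could be tested. Among 9 other ErbB ligands, 7 were tested, and from E17 to P60 2 of these rose, Tgfa and Nrg4, beside 32.8% of all genes, where Nrg4 passed the filter only through later stages than E17. Tgfa, a ligand of Egfr, went from 25.6 CPM at E17 to 13.95 at P1, 39.2 at P5, 115 at P14 and 172 at P60, where it was 6.70-fold above E17 (adjusted p = 1.49e-15). Hbegf, a ligand of Egfr and Erbb4, fell from 72.0 CPM at E17 to 28.9 CPM at P1 (log2 fold change -1.32, adjusted p = 4.78e-08) and rose from 24.2 CPM at P5 to 52.5 CPM at P14 (log2 fold change 1.119, adjusted p = 8.36e-07). Nrg3, a further neuregulin gene, passed the filter only through E13, where it is highest, and is given as a description. Its mean was 6.11 CPM at E13, from 1.74 to 11.4 CPM in single libraries. No E17 library held more than 3 counts, which makes the mean at least 32.4-fold lower at E17, against 3 counts in the shallowest library. Nrg4, a ligand of Erbb4, was 2.54 CPM at P60, at least 13.5-fold above E17 on the same terms.

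Of 14 other sheddases and their regulators, 9 rose from E13 to E17, beside 28.1% of all genes, and 7 rose and 5 fell from E17 to P60, beside 32.8% and 31.5%, with a median log2 fold change of 0.04 over the latter interval beside 0.00 for all genes. Bace2, the nearest relative of Bace1, rose from 21.6 CPM at E17 to 105.6 CPM at P60 (log2 fold change 2.29, adjusted p = 1.53e-13). Timp3, an inhibitor of metalloproteases that include ADAM17, rose from 469 to 1752 CPM (1.90, adjusted p = 2.47e-13). Adam19 and Adam12, both membrane proteases of the ADAM family, fell from 175 to 25.0 CPM (log2 fold change -2.81, adjusted p = 5.37e-16) and from 36.0 to 2.83 CPM (-3.67, adjusted p = 9.67e-13).

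Among 22 adaptors and effectors, 9 rose and 4 fell from E17 to P60, again beside 32.8% and 31.5%. Mapk3, the kinase ERK1, rose from 171 to 924 CPM (log2 fold change 2.43, adjusted p = 1.07e-11) and Pik3r1, a regulatory subunit of PI3-kinase, from 157 to 501 CPM (1.68, adjusted p = 1.69e-08).

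In the list of attenuators and feedback genes, with 15 members, 8 fell and 2 rose from E17 to P60, beside 31.5% and 32.8% of all genes, and its median log2 fold change was -0.47 beside 0.00 for all genes. Dusp6, a phosphatase that inactivates ERK and is itself induced by it, fell from 159 to 36.4 CPM (log2 fold change -2.13, adjusted p = 2.71e-14). Etv5, a transcription factor downstream of ERK signalling, fell from 58.5 to 15.0 CPM (-1.96, adjusted p = 1.63e-11). Most of this lay between P1 and P14, where Dusp6 went from 159 to 99.8 and 43.5 CPM and Etv5 from 67.0 to 29.8 and 14.6 CPM. Errfi1, which encodes an inhibitor of ErbB kinases, took the opposite course and rose from 20.4 CPM at E17 to 129 CPM at P60 (2.65, adjusted p = 5.87e-16). Rnf41, a ubiquitin ligase that acts on ErbB3, rose from 37.4 to 60.6 CPM (0.70, adjusted p = 0.000383). Over the same interval the summed level of 2 proliferation markers was 1727 to 1806 CPM at E17 and 2.55 to 4.14 CPM at P60. That of 3 immature Schwann cell markers was 1447 to 1596 and 204 to 245 CPM, and that of 5 perineurial markers 268 to 303 and 1000 to 1412 CPM. Their part in these changes was not tested. The lists were put together with earlier results of these data known, and their counts are given as a description.

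**Figure D5:**
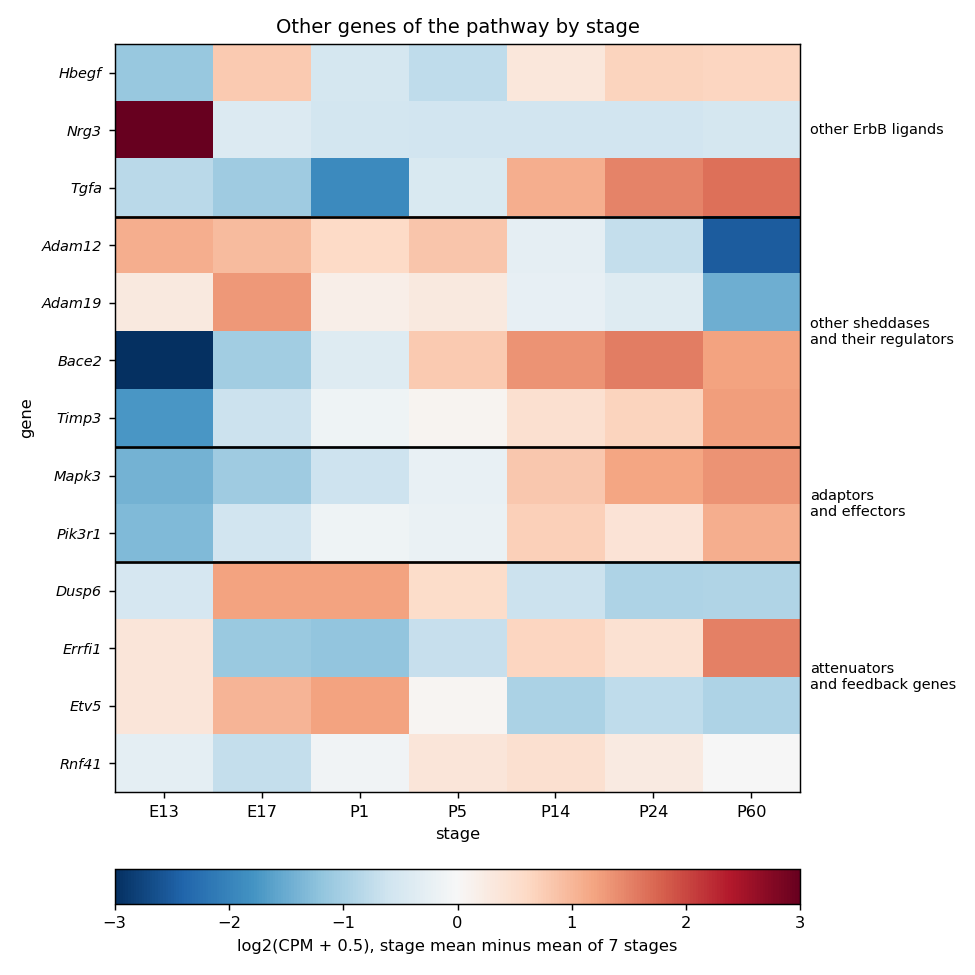
Stage levels of 13 of the other pathway genes described in the text. Colours give the stage mean of log2(CPM + 0.5) minus the mean of the gene over 7 stages, with red above and blue below, and are cut off at 3 in both directions. Tgfa, Bace2, Timp3, Mapk3 and Errfi1 were redder at P60 than at E17, and Dusp6, Etv5, Adam12 and Adam19 bluer.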

How the data were processed

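The deposited values were unnormalized counts of reads per gene. The authors had made them from TruSeq stranded mRNA libraries by adapter trimming, alignment with STAR 2.6.1c and counting with featureCounts. The labels name the build GRCm38.p5 and the methods give a human one, but all gene identifiers are of mouse. Strand and multiple-mapping settings are not given in the sources used here. Of 41605 identifiers, 41519 (99.79%) matched GENCODE M21 (GRCm38), which gave symbols, exon length and GC content. Genes were kept by filterByExpr with stages as groups (17700 genes), scaled by TMM and tested in 1 quasi-likelihood fit of all 28 libraries in edgeR 4.0.16 (R 4.3.3) with stage as the only term, and p-values were adjusted over all genes tested by Benjamini-Hochberg. The common dispersion was 0.044. The SE is the size of the log2 fold change over the square root of F. Ratios of 2 genes had 0.5 count added and were compared by exact permutation of 4 against 4 libraries. Lower bounds of folds cover counting error only.

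The 8 genes, the pathway lists and the marker lists were chosen with earlier results of these data known. All 8 were reported. From each pathway list, up to 2 genes that rose and 2 that fell most could be named per comparison, if called, at 5 CPM or more in the higher stage and without overlap of libraries, and for each of the 8 genes the 3 genes most correlated in log2 CPM (prior count 2). The text gives a part of these, and results for some genes are not reported here. Chosen after their values were seen were Nrg4, Snap25, Prph and Sox10. P-values measure the spread between libraries of separate mice or embryo pools. In the edgeR fit this spread was estimated for each gene over all 28 libraries. P-values of steps between later stages therefore also carry the spread of the E13 libraries. Without E13, 35.2% rather than 17.6% of genes were called from P1 to P5. From P5 to P14 it was 46.6% rather than 29.6%, and from P14 to P24 14.5% rather than 5.45%. Alternatives changed the scaling, the filter, the test (limma 3.58.1 voom, DESeq2 1.42.0), the libraries, a GC correction by lowess and a replicate block.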

Additional observations from a re-analysis of the deposited data

Results flagged for a closer look

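Of 70 groups of 4 libraries (8 genes and 2 ratios at 7 stages), 5 held a library whose gap to its nearest neighbour was past Dixon's 95% critical value as a share of the range of the group, where chance gives about 1 in 20. Nrg1 in P24 replicate 1 was 0.2365 CPM against 1.04 to 1.15 CPM in the other 3 libraries, and the call of Nrg1 from P24 to P60 rested on it. Nrg1 in P60 replicate 2 was 3.05 CPM against 2.49 to 2.56 CPM. Erbb3 in P5 replicate 3 was 687.7 CPM against 761 to 769.7 CPM. Erbb4 in P5 replicate 4 was 17 CPM against 12.0 to 12.1 CPM. The log2 ratio of Erbb3 over Erbb2 in P14 replicate 1 was 2.196 against 2.01 to 2.03.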

How the results depend on the processing

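Of the 25 called changes of the 8 genes, none turned direction in 498 recalculations, and 19 recalculations lost a call, 9 of them that of Nrg1 from E17 to P1. The 31 changes not called crossed the threshold 40 times in 602, and the cause was not tested. The 7 counts of called genes, without 1 library in turn, were 7 to 7, 2 to 3, 1 to 2, 2 to 3, 1 to 1 and 2 to 3 for the 6 steps in order and 6 to 6 for E17 to P60. With a fold of at least 2 required, the counts from P1 to P60 were 1, 1, 0 and 1. Without a filter, 1 gene was called from P1 to P5. From P5 to P14, 5 were called with library size only, with the GC trend removed within stages, in a fit of the 2 stages, without E13 and with voom, where 34.5% to 53.6% of all genes were called, against 29.6%. From P14 to P24, 2 were called with either GC correction, in a fit of the 2 stages and without E13, beside 10.5% to 14.5% of all genes against 5.45%, and 3 with voom, beside 18.9%. The fit of 2 stages called 4 from P1 to P5 (31.3% of all genes), and voom 5 from E17 to P1 (52.4%).

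Replicate numbers recur between stages, but 84 pairs of libraries with the same number had a median correlation of deviations of 0.084 (range -0.202 to 0.571), against -0.04 for pairs with another number. Since not all pairs were over 0.1, the numbers were not taken as pairs, although 17 of 28 libraries correlated best with their own number, a hint from the data of shared structure. With a replicate block, the counts were 7, 2, 2, 3, 1 and 3 for the 6 steps, 6 for E17 to P60 and 8 for any stage, and the call of Nrg1 from E17 to P1 was lost. With the block and the GC correction together they were 7, 3, 2, 5, 2 and 4, then 7 and 8, while the share of all genes called rose to 41.1% from P5 to P14 and to 11.1% from P14 to P24.

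Library size as the only scaling shifted the median of all genes to -0.33 from E13 to E17, -0.109, -0.194 and -0.168 in the next 3 steps and -0.307 from E17 to P60. From E13 to E17 it gave 3540 higher calls of 11251, against 4975 of 11014 with TMM. It turned uncalled changes of Bace1 from E13 to E17 (-0.13), Erbb3 from E17 to P1 (-0.01), Nrg1 (-0.007), Nrg2 (-0.011), Erbb2 (-0.14) and Adam17 (-0.12) from P1 to P5 and Nrg2 from P5 to P14 (-0.017). GC correction over all libraries turned those of Erbb2 from P1 to P5 (-0.053) and Egfr from P5 to P14 (0.006), and voom those of Erbb2 from E17 to P1 (0.019) and P1 to P5 (-0.034) and of Nrg2 from P5 to P14 (-0.027). Omission of 1 library also turned uncalled changes, whose ranges were -0.168 to 0.036 for Erbb2 from E17 to P1, and, from P1 to P5, -0.075 to 0.809 for Nrg1, -0.203 to 1.123 for Nrg2 and -0.074 to 0.129 for Erbb2. From P5 to P14 they were -0.797 to 0.571 for Nrg2 and -0.167 to 0.043 for Egfr, from P14 to P24 -0.40 to 0.968 for Nrg2 and -0.281 to 0.09 for Egfr, and from P24 to P60 -0.014 to 0.072 for Erbb3 and -0.547 to 0.086 for Nrg2.

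Ratios passed their threshold with the GC trend removed, but 6 of them had the smallest exact p already and passed because 10 (within stages) or 9 (over all libraries) of the 14 tests then reached it. Within stages these were, for Erbb3 over Erbb2, E17 to P1 (0.23), P1 to P5 (-0.39), P14 to P24 (-0.35) and E17 to P60 (-0.65), and for Bace1 over Adam17 E13 to E17 (-2.04), the next steps up to P14 (-0.19, 0.18 and 0.69), P24 to P60 (1.29) and E17 to P60 (2.05). Over all libraries they were 0.25, -0.28, -0.34 and -0.38 for the former, with P5 to P14 turned to 0.093, and -1.76, -0.16, 0.67, 1.29 and 1.97 for the latter, P1 to P5 not among them. Without 1 library in turn, the Erbb3 over Erbb2 differences ranged from -0.155 to 0.29, 0.06 to 0.31, -0.46 to -0.22, -0.058 to 0.072, -0.42 to -0.29 and -0.20 to -0.07 for the 6 steps and -0.69 to -0.61 for E17 to P60. Those of Bace1 over Adam17 ranged from -2.17 to -1.78, -0.23 to -0.14, 0.14 to 0.23, 0.64 to 0.72, 0.03 to 0.20 and 1.17 to 1.35, and 2.00 to 2.11. Depth limited Nrg2 after E17 and Nrg1 at E17, and in fits without E13 Nrg2 did not pass the filter.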
